A study of Mus musculus with 8 samples.

Results

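The smooth muscle contractile genes described here were Acta2, Tagln, Myh11, Cnn1, Myl9, Smtn and Actg2, 7 of the 49315 genes counted in E9.5 (embryonic day 9.5) mouse hearts. They were chosen by name, as smooth muscle genes also active in embryonic myocardium and outflow tract, with earlier results of these data known. They encode actin, myosin and actin-binding proteins. RNA-seq had been made from 4 wild-type libraries (WT) and 4 libraries of embryos homozygous for Tbx20EH1Mut (MT), each from 3 pooled hearts on a C57BL/6J background. Tbx20EH1Mut, made by CRISPR/Cas9 editing, replaces 2 neighbouring residues in the engrailed homology 1 (EH1) domain of the T-box transcription factor Tbx20, the domain that binds TLE co-repressors, in every cell that expresses Tbx20. The comparison asks which transcripts differ when Tbx20 carries that change. All 8 libraries were of 1 stage and 1 tissue, and they held 33359322 to 49523086 counts in WT and 36250675 to 38357025 in MT. Gene counts cannot show the substitution itself, so no value here checks the genotype labels. Tbx20 counted 353 to 379.6 CPM (counts scaled to library size) in WT and 215 to 317 in MT, a log2 fold change of -0.46 (edgeR quasi-likelihood test, adjusted p = 0.0273), a call that held in 4 of 8 leave-one-out fits, in which each library was dropped in turn.

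Smooth muscle contracts when myosin, switched on by phosphorylation of its regulatory light chain, pulls on actin filaments. Genes of this apparatus are controlled by serum response factor (SRF), which binds a DNA element named the CArG box, together with its co-activators of the myocardin family. Several of them, Acta2 and Tagln among them, are also transcribed in the early heart tube before the myocardium settles on its striated muscle genes, so in an E9.5 heart their transcripts do not mark smooth muscle cells alone.

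The sequences below show how closely the muscle actins resemble each other, since Acta2 is read against Actc1 and Acta1 further on. They are the last 60 coding bases before the stop codon in GENCODE M21 transcripts, on GRCm38, with capitals at the positions that differ from Acta2. They lie on the minus strand at chr19:34241670-34241729 (Acta2), chr2:114047469-114047528 (Actc1, cardiac actin), chr8:123892012-123892071 (Acta1, skeletal actin) and chr6:83512988-83513047 (Actg2, enteric smooth muscle actin).
Acta2: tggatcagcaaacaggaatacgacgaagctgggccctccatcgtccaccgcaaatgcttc
Actc1: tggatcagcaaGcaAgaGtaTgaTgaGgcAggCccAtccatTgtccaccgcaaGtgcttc
Acta1: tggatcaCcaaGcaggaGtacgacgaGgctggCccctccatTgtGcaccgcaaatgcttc
Actg2: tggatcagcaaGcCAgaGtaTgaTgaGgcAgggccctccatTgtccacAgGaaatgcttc
Actc1 differed from Acta2 at 11 of these bases, Acta1 at 7 and Actg2 at 11. Over the whole coding sequence the identity to Acta2 was 82.6% for Actc1, 85.4% for Acta1 and 83.8% for Actg2, and the longest stretch shared without a difference was 29 bases. No 100-base window of the longest transcript of any of the 7 genes occurred in the paralogs listed for it, so reads of that length tell these family members apart.

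The CArG boxes near the start sites are shown because SRF reads them. RefSeq promoters (GRCm38.p6, 250 bases before to 50 after the start) were at hand for 4 of the 7 genes, Acta2, Cnn1, Myl9 and Smtn. Both strands were searched for the CArG box (CC, then 6 bases of A or T, then GG), first exactly and then with at most 1 G or C among the 6 middle bases, and the boxes are in capitals. The Acta2 stretches lie on the minus strand at chr19:34255438-34255467 and chr19:34255388-34255417, and the Myl9 stretch on the plus strand at chr2:156775293-156775384.
Acta2, box 1: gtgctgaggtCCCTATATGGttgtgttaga
Acta2, box 2: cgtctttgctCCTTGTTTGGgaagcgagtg
Myl9: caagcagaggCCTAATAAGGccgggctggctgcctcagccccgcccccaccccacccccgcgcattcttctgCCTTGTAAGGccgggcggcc
An exact box was found in 1 of the 4 promoters (Myl9), against 1.63% of 32851 promoters, and the relaxed form in 2 (Acta2 and Myl9), against 9.98%. Neither form was in the Cnn1 or the Smtn window, which says only that these letters are not in those windows.

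In these hearts 1 of the 7 genes, Smtn, was lower in MT and none was called higher by edgeR's quasi-likelihood test (adjusted p below 0.05 over 17163 genes tested). Of all genes tested, 29.3% were called, 15.3% lower and 14.0% higher, so 1 of 7 is not above the background share. All 7 genes passed the filter on low counts. At an unadjusted p below 0.05 there were 3 of 7, Smtn below 0 and Acta2 and Tagln above 0, beside 7403 of the 17163 genes tested. DESeq2 called 2, Smtn and Tagln, among 6201 genes it called in all, and limma-voom called 1, Smtn, among 5215. The median log2 fold change (MT minus WT) of the 7 was 0.03, against 0.00 for all genes tested, with 4 estimates above 0 and 3 below. The groups did not overlap for 1 of the 7, Smtn, against 30.5% of all genes tested, or 15.7% with MT below WT. In bulk hearts, fewer cells of a type and less RNA per cell cannot be told apart.

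**Figure D1:**
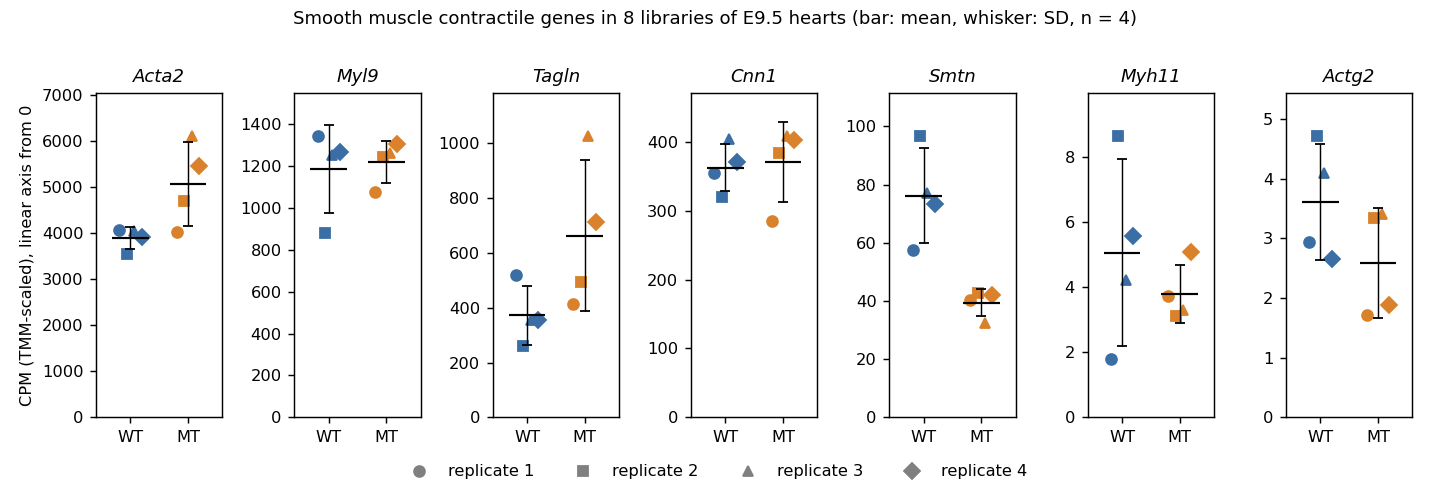
Level of each of the 7 genes (CPM, linear axes from 0) in the 4 WT and 4 MT libraries, with a point for each library numbered by replicate, a bar at the group mean and a whisker of 1 SD. The Smtn groups are apart, with all 4 MT libraries under 43 CPM and all 4 WT libraries above 57, and the groups of the other 6 genes overlap.

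Acta2 (smooth muscle alpha-actin, ENSMUSG00000035783, GRCm38 chr19:34241090-34255336, minus strand) forms the thin filament of vascular smooth muscle. Its level was 4068, 3554, 4057 and 3921 CPM in WT replicates 1 to 4 and 4020, 4709, 6122 and 5451 CPM in the MT replicates. MT replicates 2 to 4 lay above every WT library and MT replicate 1 lay among them. The means were 3900 ± 240 CPM (SD, n = 4) in WT and 5075 ± 910 CPM in MT, a fitted log2 fold change of 0.38 (SE 0.150, 95% interval 0.05 to 0.71), and the change did not pass the test (edgeR adjusted p = 0.0798). It passed only without MT replicate 1 (0.48, edgeR adjusted p = 0.0396), and the estimate fell to 0.23 with an offset on exon length (edgeR adjusted p = 0.349).

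Actg2 (enteric gamma-actin, ENSMUSG00000059430, chr6:83512905-83536265, minus strand), the smooth muscle actin of gut and bladder, had 66 to 232 counts in a library. Its level was 2.94, 4.73, 4.10 and 2.66 CPM in the WT replicates and 1.71, 3.35, 3.41 and 1.88 CPM in the MT replicates. The groups overlapped, and the log2 fold change of -0.48 (95% interval -1.17 to 0.20) did not pass the test (edgeR adjusted p = 0.254). It was -0.32 without WT replicate 2 and also without MT replicate 1.

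Myh11 (smooth muscle myosin heavy chain, ENSMUSG00000018830, chr16:14194527-14291408, minus strand) is the motor of the contractile filament and the member most restricted to mature smooth muscle. Its level was 1.79, 8.68, 4.22 and 5.59 CPM in the WT replicates and 3.73, 3.11, 3.31 and 5.09 CPM in the MT replicates. WT replicates 1 and 2 were the lowest and the highest of all 8 libraries, so the MT values lay within the WT range. The log2 fold change was -0.42 with a wide interval of -1.30 to 0.47 (edgeR adjusted p = 0.450), and it was -0.01 without WT replicate 2 and -0.70 without WT replicate 1 (edgeR adjusted p = 0.0802). With 59 to 426 counts in a library, Myh11 was the member with the largest spread among WT libraries (coefficient of variation 56.7%).

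Myl9 (regulatory light chain of smooth muscle myosin, ENSMUSG00000067818, chr2:156775420-156781658, plus strand) carries the phosphorylation site that switches the motor on. Its level was 1346, 879.5, 1253 and 1266 CPM in the WT replicates and 1074, 1241, 1264 and 1304 CPM in the MT replicates. Every MT value fell inside the WT range, and WT replicate 2 was the lowest library. The log2 fold change was 0.04 (95% interval -0.29 to 0.38, edgeR adjusted p = 0.857), and its sign turned with scaling to library size alone, without WT replicate 2 and with an offset on exon length.

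Tagln (transgelin, also SM22 alpha, ENSMUSG00000032085, chr9:45929619-45936058, minus strand) is an actin-binding protein and an early gene of the smooth muscle programme. Its level was 519.7, 261, 356 and 354 CPM in the WT replicates and 414, 494, 1029 and 715 CPM in the MT replicates. MT replicates 3 and 4 lay above all WT libraries, whereas MT replicates 1 and 2 lay below WT replicate 1. The means were 373 ± 108 CPM (SD, n = 4) in WT and 663 ± 275 CPM in MT, a fitted log2 fold change of 0.83 (SE 0.293, 95% interval 0.18 to 1.48), just on the far side of the threshold (edgeR adjusted p = 0.0557). It passed the test without WT replicate 1 (1.03, edgeR adjusted p = 0.0219) and without MT replicate 1 (edgeR adjusted p = 0.0333), and it fell to 0.54 without MT replicate 3 (edgeR adjusted p = 0.145). Tagln shares 62.4% of its exon bases with Gm48529 on the other strand, and whether counting used the strand is not given in the sources used here. Gm48529 had 4470 counts over all libraries against 158484 for Tagln. These counts do not show whether reads in the shared bases were left out of both genes, which would make the Tagln level too low.

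Cnn1 (calponin 1, ENSMUSG00000001349, chr9:22099216-22109630, plus strand) binds actin and slows the myosin motor. Its level was 355, 320.5, 404 and 371 CPM in the WT replicates and 285, 384, 409 and 403 CPM in the MT replicates. MT replicate 1 was the lowest library and MT replicate 3 the highest, so the MT group spanned the WT group. The log2 fold change was 0.03 (95% interval -0.28 to 0.34, edgeR adjusted p = 0.889). The interval leaves out a change of 1.5-fold in either direction, and the sign turned without WT replicate 2, MT replicate 3 or MT replicate 4 and with scaling to library size alone.

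Smtn (smoothelin, ENSMUSG00000020439, chr11:3517523-3540612, minus strand), an actin-binding protein of fully contractile smooth muscle, was the 1 member called by the edgeR test on all 8 libraries. Its level was 57.5, 96.9, 77.2 and 73.4 CPM in the WT replicates and 40.4, 42.9, 32.4 and 42.1 CPM in the MT replicates. All 4 MT libraries lay below the lowest WT library (p = 0.0286 by an exact permutation test, two-sided, which cannot go lower with 4 against 4). The means were 76.3 ± 16.2 CPM (SD, n = 4) in WT and 39.4 ± 4.78 CPM in MT, 1.93-fold higher in WT, with a log2 fold change of -0.95 (SE 0.162, 95% interval -1.31 to -0.59, edgeR adjusted p = 0.00283). Smtn passed the test in each of the 8 leave-one-out fits (-1.07 to -0.80) and in each of 10 other settings (-1.01 to -0.73). On the other strand Smtn shares 16.3% of its exon bases with Gm11946, which had 105 counts in all libraries against 19691 for Smtn.

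**Figure D2:**
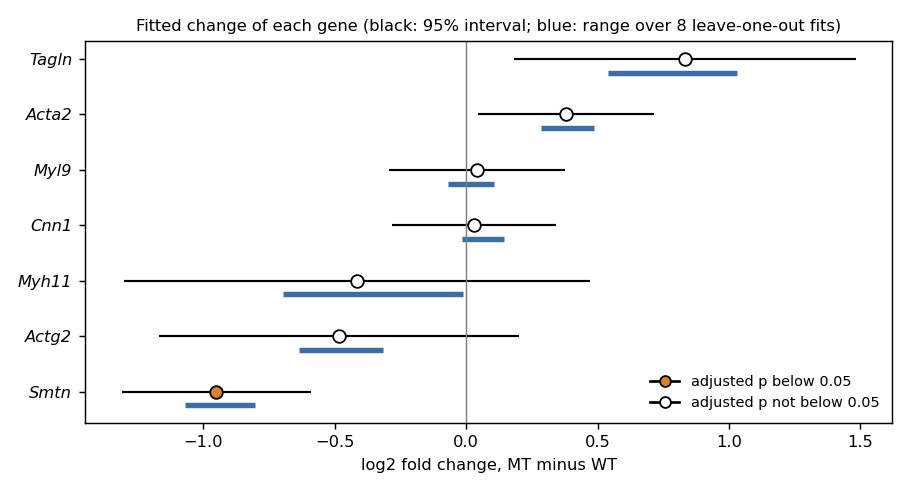
Fitted log2 fold change (MT minus WT) of the 7 genes, with the 95% interval in black and the range over the 8 leave-one-out fits in blue. The Smtn interval of -1.31 to -0.59 stays below 0, the Acta2 and Tagln intervals start at 0.05 and 0.18, and those of the other 4 genes span 0.

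Levels of different genes were compared as CPM per kilobase of exon. Acta2 was the 11th most abundant gene in both groups on that scale, at 2190 ± 135 CPM per kilobase (SD, n = 4) in WT and 2850 ± 511 in MT. Myl9 came next at 1021 and 1050.5, then Tagln at 187 and 333, Cnn1 at 133 and 135 and Smtn at 17.4 and 9.01. Actg2 stood at 2.32 and 1.66 and Myh11 at 0.764 and 0.574. The order of the 7 by mean level was the same in WT and MT, and Tagln and Cnn1 in WT were the 1 pair of neighbours whose levels overlapped between libraries. The Tagln level on this scale carries the limit on shared exon bases given above. Together Acta2 and Myl9 supplied most of the 7-gene total, with Acta2 at 61.9% ± 2.84 in WT and 65.0% ± 0.826 in MT and Myl9 at 28.6% ± 2.42 in WT and, with a like spread, 24.3% in MT. Myh11, the motor of mature smooth muscle, supplied 0.0227% in WT and 0.0133% in MT.

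The 4 muscle actins can be read against each other within a library, which takes library scaling out of the comparison. Acta2 made up 24.3%, 23.7%, 22.2% and 20.9% of muscle actin message per exon length in the WT replicates and 31.3%, 29.4%, 36.7% and 32.7% in the MT replicates. Each MT library had a larger Acta2 share than each WT library (p = 0.0286 by the same exact permutation test, 0.0571 adjusted over the 4 actins). Actc1, the cardiac actin of the sarcomere, made up 71.2% ± 2.06 in WT and 60.9% ± 4.25 in MT, lower in every MT library, with the same p (exact permutation test, 0.0571 adjusted). Acta1 made up 6.02% ± 0.611 and 6.59% ± 1.19 (exact permutation p = 0.486), and Actg2 made up 0.0246% and 0.0188% (exact permutation p = 0.343). As a single gene Actc1 had 11126 ± 1404 CPM in WT and 8582 ± 985 CPM in MT, a log2 fold change of -0.37 that did not pass the test (edgeR adjusted p = 0.0768). It did so with an offset on exon length (edgeR adjusted p = 0.0252).

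**Figure D3:**
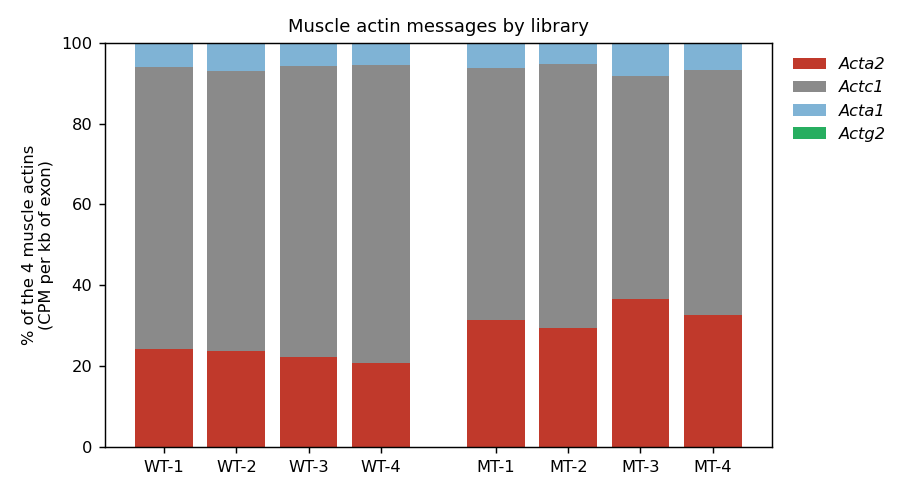
Share of each of the 4 muscle actins in muscle actin message (percent of CPM per kilobase of exon), with a stacked bar from 0 to 100 for each library. Acta2 runs from 20.9% to 24.3% in WT and from 29.4% to 36.7% in MT, and Actg2, at under 0.04% of each bar, is too thin to see.

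In all, 8 ratios of a member to a related gene were compared within libraries by exact two-sided permutation tests, adjusted over the 8. The groups did not overlap in 4 of them, each with p = 0.0286 in the exact test and 0.0571 after adjustment, the smallest adjusted value these 8 reached. The mean log2 ratio of Acta2 to Actc1 differed by 0.74 and that to Tnnt2, cardiac troponin T, by 0.33, in each case with every MT library above every WT library. The ratio of Cnn1 to Cnn2, the more widely expressed calponin, differed by -0.33 and that of Myl9 to the non-muscle light chain Myl12a by -0.25, with every MT library below every WT library. With an offset on exon length the fitted estimates of each pair, taken as a difference with no test, gave 0.12 for Acta2 to Tnnt2, -0.47 for Myl9 to Myl12a and 0.78 for Acta2 to Actc1. Against Actb, the non-muscle beta-actin, Acta2 differed by -0.29 with overlapping groups (exact permutation p = 0.114, 0.131 adjusted). Tagln against Tagln2 differed by 0.84 with overlapping groups (exact permutation p = 0.0857, 0.114 adjusted), and by 0.53 without MT replicate 3. Myh11 against Myh10, a non-muscle heavy chain, differed by -0.20 (exact permutation p = 0.486), by -0.47 without WT replicate 1, by -0.07 without WT replicate 4 and by -0.31 with the offset on exon length. Actg2 against Acta2 differed by -0.87 (exact permutation p = 0.0571, 0.0914 adjusted).

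The libraries with the highest and lowest level were not the same for all 7 genes. WT replicate 2 held the highest level of Myh11, Smtn and Actg2 and the lowest of Acta2, Tagln and Myl9, and MT replicate 3 held the highest level of Acta2, Tagln and Cnn1 and the lowest of Smtn. The ratio of the highest to the lowest library ran from 1.44 for Cnn1 to 4.85 for Myh11. By Pearson's r of log2 CPM over 8 libraries, which differ for all genes at once in depth and in the balance of short and long genes, the genes most like Smtn among 10503 were Tent4b (0.998), Nid2 (0.994) and Heatr5b (0.993). The 3 most like Acta2 were Ist1 (0.993), Csnk1a1 (0.991) and Pcgf5 (0.990), and those most like Tagln were Lcmt1 (0.994), Dynll1 (0.992) and Galk2 (0.991). Myh11 was matched best by Pds5b (0.971), Mapk1ip1l (0.964) and Numb (0.958), and Cnn1 by Prkag2 (0.968), Ccdc71l (0.967) and Acadm (0.953). Myl9 was matched best by Pdcd5-ps (0.984), Emc7 (0.983) and Gnpnat1 (0.973), and Actg2 by Ccny (0.952), Zfp961 (0.942) and Slc24a3 (0.934).

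Gene length moved with the libraries in the same places. Among 1715 tested genes with under 1000 bases of exon, the median log2 deviation from the mean of all libraries was -0.40 in WT replicate 2 and 0.305 in MT replicate 3, with the other WT libraries at -0.15 to 0.11 and the other MT libraries at 0.06 to 0.17. The median log2 fold change was 0.45 for those genes, 0.21 for genes of 1000 to 2000 bases and -0.12 for genes of 6000 bases or more. Acta2 has 1781 bases of exon, Tagln 1988, Myl9 1162 and Actg2 1557, while Smtn has 4380 and Myh11 6632. With an offset for exon length in each library, Smtn was still lower in MT (-0.90, edgeR adjusted p = 8.1e-04), Tagln stood at 0.72 (edgeR adjusted p = 0.100) and Acta2 at 0.23. Without WT replicate 2 and MT replicate 3 together, Smtn stood at -0.73 (edgeR adjusted p = 0.00327), Tagln at 0.40 (edgeR adjusted p = 0.208) and Acta2 at 0.23 (edgeR adjusted p = 0.211).

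**Figure D4:**
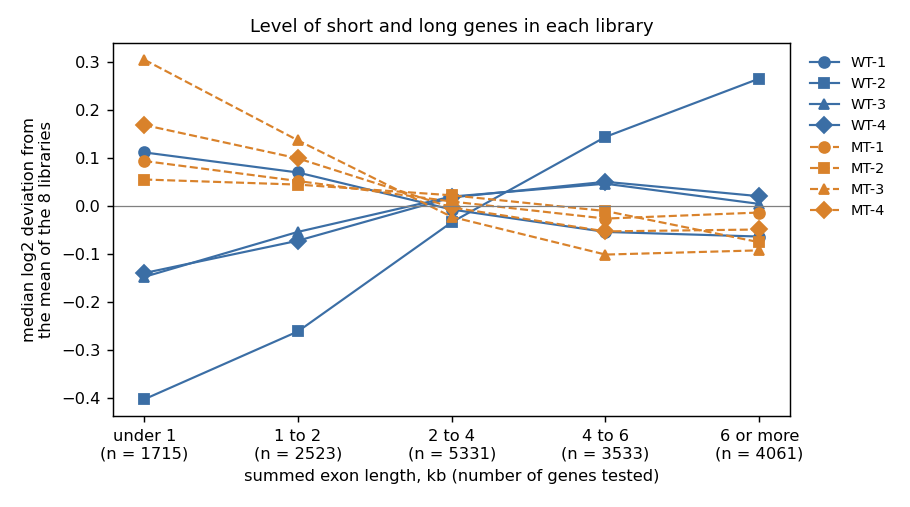
Median log2 deviation of each library from the mean of all 8, for genes grouped by exon length in bases, with a line for each library. WT replicate 2 runs from -0.40 for the shortest genes to 0.27 for the longest, and MT replicate 3 runs the other way from 0.305 to -0.09.

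Genes that act on or beside the 7 were read from 4 lists. Of 8 regulators tested, 2 were higher and 1 lower in MT, against 29.3% of all genes called, with a median log2 fold change of -0.19. The zinc finger factor Klf5 had 1.21, 1.16, 1.10 and 1.05 CPM in the WT replicates and 2.36, 1.73, 6.56 and 4.37 CPM in MT, a log2 fold change of 1.73 (edgeR adjusted p = 0.0109). Fhl2, a LIM protein that binds SRF, rose from 144 ± 27.6 to 260.1 ± 67.5 CPM (0.86, edgeR adjusted p = 0.0127). Elk1, an ETS factor that competes with myocardin for SRF, fell by 0.42 on the log2 scale (edgeR adjusted p = 0.0380), a call that held in 2 of 8 leave-one-out fits. Neither Srf nor its co-activators passed the test. Srf counted 210.0, 258, 236 and 236 CPM in WT and 167, 201, 206 and 191 CPM in MT, with every MT library lower (-0.30, edgeR adjusted p = 0.0706; DESeq2 adjusted p = 0.0494). Myocd, myocardin itself, had a log2 fold change of -0.82 (edgeR adjusted p = 0.0673; DESeq2 adjusted p = 0.0263), and -0.36 without WT replicate 2, with WT replicate 2 at 99.9 CPM and the other WT libraries at 29.9 to 47.1. Mrtfa and Mrtfb stood at -0.30 and -0.09 (edgeR adjusted p = 0.288 and 0.750), and at -0.03 and 0.16 without WT replicate 2.

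Of 25 other smooth muscle cytoskeleton genes, 2 were higher and 4 lower in MT, beside 14.0% and 15.3% of all genes tested. Their median log2 fold change was 0.04. By edgeR 2 were lower without MT replicate 1 or MT replicate 4, and limma-voom also called 2 lower. Cald1, caldesmon, which restrains actin-activated myosin, had 178, 185, 129 and 142 CPM in WT and 255, 255, 375 and 288 CPM in MT (0.89, edgeR adjusted p = 0.00450). Ppp1r14a, an inhibitor of myosin phosphatase, rose from 6.81 ± 3.38 to 17.5 ± 3.70 CPM (1.37, edgeR adjusted p = 0.0104), and Ppp1r12b, a targeting subunit of the same phosphatase, fell by 0.89 on the log2 scale (edgeR adjusted p = 0.00413). The intermediate filament gene Synm fell by 0.96 (edgeR adjusted p = 0.00993). Vcl, vinculin, an adhesion gene whose groups overlapped, had 8.56, 119.7, 56.2 and 52.5 CPM in WT and 11.2, 23.2, 4.13 and 6.36 CPM in MT (-2.40, edgeR adjusted p = 0.0307), a call that held in 2 of 8 leave-one-out fits.

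Of 15 paralogs of the 7 genes 14 were tested, and 2 were higher in MT and none lower, beside 14.0% and 15.3% of all genes tested, with a median log2 fold change of 0.15. DESeq2 called 2 higher and 2 lower, the latter Actc1 (adjusted p = 0.0362) and Tagln3 (adjusted p = 0.0298). By edgeR the count was 0 without WT replicate 3 or WT replicate 4 and 1 without MT replicate 2 or MT replicate 4. Actb had 2350.3, 1544, 1652 and 1598 CPM in WT and 2638, 2504, 3351 and 2693 CPM in MT (0.65, edgeR adjusted p = 0.0182), and its call held in 6 of 8 leave-one-out fits. Cnn3, a calponin of non-muscle cells, stood at 0.43 (edgeR adjusted p = 0.0306), a call that held in 2 of 8 leave-one-out fits. Cnn2 (0.36, edgeR adjusted p = 0.0672), Myl12a (0.31, edgeR adjusted p = 0.159), Tagln2 (-0.05, edgeR adjusted p = 0.806) and Myh10 (-0.10, edgeR adjusted p = 0.774) did not pass. Tagln2 turned to 0.02 without MT replicate 3 and Myh10 to 0.23 without WT replicate 2.

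Transforming growth factor beta is a known inducer of smooth muscle genes, and of 11 of its inputs and targets 5 were higher in MT and none lower, beside 14.0% of all genes tested called higher. The matricellular gene Ccn2 had 52.3, 45.2, 32.6 and 41.5 CPM in WT and 94.5, 124, 176 and 145 CPM in MT (1.65, edgeR adjusted p = 5.8e-04). Ccn1, of the same gene family, rose from 61.9 ± 11.5 to 112 ± 22.3 CPM (0.85, edgeR adjusted p = 0.00618). The receptor Tgfbr2 rose by 0.82 in log2 (edgeR adjusted p = 0.00327) and Ltbp1, which tethers the latent ligand, by 0.47 (edgeR adjusted p = 0.0161), the latter call holding in 5 of 8 leave-one-out fits. The ligands, the receptor Tgfbr1 (-0.21, edgeR adjusted p = 0.225) and the Smad genes of the list did not pass, and the median of the 11 was 0.09. Smad2 lay lower in every MT library (-0.27, edgeR adjusted p = 0.0627). By edgeR it was called lower with library size alone and without WT replicate 1.

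**Figure D5:**
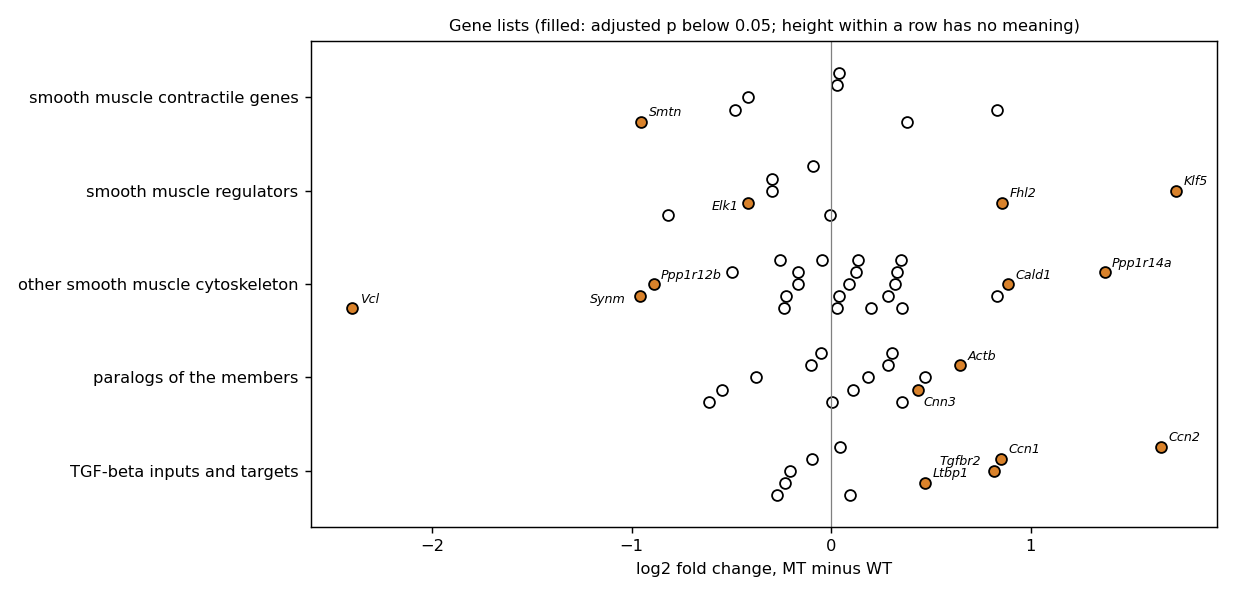
Fitted log2 fold change (MT minus WT) of the 7 genes and of the 4 lists read beside them, with a circle for each tested gene that is reported, filled at an edgeR adjusted p below 0.05 and named where filled. The filled circles among the TGF-beta genes all lie above 0, and Smtn at -0.95 is the 1 filled circle among the contractile genes.

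Markers of cell types that a dissected heart can hold were summed in each library, and their calls stand beside 14.0% of all genes tested called higher and 15.3% lower. The 8 mural cell markers, those of pericytes and vascular smooth muscle precursors, summed to 203 to 308 CPM in WT and 199 to 247 in MT. Of them Rgs5 was higher (0.93, edgeR adjusted p = 0.0195) and Abcc9 lower (-1.13, edgeR adjusted p = 8.1e-04), with 3 estimates above 0 and 5 below. Kcnj8, of the same list, was near the floor, with a mean of 0.178 CPM in WT and 0.264 in MT. The 10 cardiomyocyte markers, which check the labelled tissue, summed to 19224 to 25802 CPM in WT and 18567 to 30160 in MT, with MT replicate 3 highest, and 2 of them, Myh6 and Actn2, were lower. The call of Rgs5 held in 4 of 8 leave-one-out fits and that of Actn2 in 1. Foregut epithelium markers summed to 1.12 to 54.9 CPM in WT and 30.6 to 191 in MT (3 of 7 higher). The lowest MT sum, 30.6, was that of MT replicate 3, and the highest, 191, that of MT replicate 1. Of the foregut calls, that of Shh held in 7 of 8 leave-one-out fits, that of Epcam in 3 and that of Foxa2 in 2. With replicate number added as a block, Foxa1, Cldn6 and Nkx2-1 passed as well. Erythroid markers summed to 1754 to 4588 CPM in WT and 318 to 1024 in MT (5 of 5 lower). Endothelial markers summed to 429 to 584 CPM in WT and 553 to 624 in MT (3 of 6 higher), and neural crest markers to 43.8 to 60.6 and 35.5 to 68.1 (1 of 4 tested higher). Epicardial markers summed to 54.1 to 174 CPM in WT and 117 to 160 in MT. Of the 5 tested, Wt1 was higher (1.59, edgeR adjusted p = 0.00118) and the other 4 had estimates below 0 that did not pass. Of 5 markers of skeletal muscle progenitors none passed the filter, and their sum was at most 0.207 CPM. No marker was at 0 in all libraries, and the part of these cell types in the lower Smtn level and in the Acta2 and Tagln estimates, which did not pass the test, was not tested.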

How the data were processed

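Hearts were dissected at E9.5 and 3 were pooled for each poly-A RNA-seq library, with 4 libraries of each genotype. The authors deposited whole-number counts per Ensembl gene for each library, 49315 genes in each. The submitters' processing notes name Trimmomatic 0.36, STAR 2.5.2b and GRCm38, while the counting tool and its strand setting are not given in the sources used here. GENCODE M21 gave symbols for 48970 genes, and 91.4% of genes had the start and end of that annotation, 5 of the 7 members among them. Library totals are given in the report.

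Counts were tested with edgeR 4.0.16 (R 4.3.3) by glmQLFit and glmQLFTest after TMM scaling and filterByExpr, on genotype alone, with Benjamini-Hochberg adjustment over 17163 genes, and adjusted p below 0.05 made a call. The common dispersion was 0.0707. In simulated data of 16478 genes, 100 genes were changed by a log2 of 1 and 100 by a log2 of 2. Of these, 70% and 94% were recovered, and 4.09% of calls were false. The simulated counts were drawn independently for each gene, with fewer changed genes than were called here. They held no difference between libraries by gene length, so these rates need not hold for the real libraries. CPM were taken after TMM scaling. Ratios and shares were tested by exact two-sided permutation over 70 arrangements. p-values measure the spread between pools of hearts. No pair of libraries from the same group agreed within sampling noise (chi-square per degree of freedom 11.2 to 249).

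The members and lists were chosen with earlier results of these data known. Named were the 7 members, Tbx20, in each list the called genes (at most 4 in each direction), Srf, Myocd, Mrtfa, Mrtfb, the paralogs used in ratios and, for each member, the 3 genes with the highest Pearson r of log2 (CPM + 0.5) and a mean of at least 5 CPM. Genes of the mural, cardiomyocyte, foregut and epicardial marker lists, and Tgfbr1 and Smad2, were named after their values were seen. Of the called list genes, 2 are counted but not reported here. Alternatives were other scalings, filters, DESeq2 1.42.0, limma-voom (limma 3.58.1), a replicate block and leaving out each library. An offset on exon length (loess span 0.3) and leaving out 2 libraries together were chosen after seeing the data.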

Additional observations from a re-analysis of the deposited data

How the results depend on the processing

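Smtn was lower in MT and called in every setting run. The number of members called was 1 in the analysis reported and 2 with upper-quartile scaling, no filter, at least 10 counts in every library or DESeq2, the other gene being Tagln; leaving out 1 library gave 1 to 3 (2 without WT replicate 1, 3 without MT replicate 1). Regulators called went from 3 to 5 with DESeq2 and ran from 2 to 5 when 1 library was left out, 5 being without WT replicate 1. Cytoskeleton genes called went from 6 to 4 with limma-voom and to 8 with upper-quartile scaling. When 1 library was left out they ran from 4 (without MT replicate 4) to 8 (without WT replicate 1). Paralogs called went from 2 higher to 4, of which 2 were lower (Actc1 and Tagln3), with library size alone, with DESeq2 and without WT replicate 2 and MT replicate 3 together, and ran from 0 (without WT replicate 3 or WT replicate 4) to 3 when 1 library was left out. Estimates near 0 turned sign. Cnn1 was -0.039 with library size alone, -0.047 with the offset on exon length, -0.079 without both libraries and -0.015 at the lowest (leaving out WT replicate 2, MT replicate 3 or MT replicate 4); leaving out 1 library it reached 0.15. Myl9 was -0.019, -0.20 and -0.097 under those first 3 settings and -0.067 without WT replicate 2, reaching 0.11 when 1 library was left out. Myh11 was 0.030 without both libraries. The cause of these shifts was not tested. Of all genes, 5024 were called, and 3061, 3001 and 3028 without WT replicate 3, WT replicate 4 and MT replicate 4 and 6586 without WT replicate 1. The scaling that moved the median log2 fold change of all genes furthest was upper-quartile, by 0.084. Tbx20 missed the threshold with upper-quartile scaling (edgeR adjusted p = 0.0608) and with the offset on exon length (edgeR adjusted p = 0.0966). The labels give same-numbered libraries of the groups no link beyond the number. The correlations of their deviations were -0.52, 0.44, 0.06 and 0.10, and 0 of 4 WT libraries matched best with their own number. Differences between libraries by gene length enter these correlations, so they cannot show whether the numbers stand for pairs. With the replicate block, 1 member (Smtn), 2 regulators, 6 cytoskeleton genes, 1 paralog and 5 TGF-beta genes were called. The members with the fewest counts were Myh11 and Actg2, with at most 426 and 232 in a library, and depth as a limit was not tested.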
